A study of Sus scrofa with 12 samples.

Results

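Vitrification I was compared with fresh control in pig (Sus scrofa) blastocysts, using the 3 libraries of each group, which are 6 of the 11 libraries in the deposited table. The 6 libraries were chosen by their labels and not by any measured value, and all genes of the table were considered, of which 9411 of 31781 were expressed highly enough to be tested. Both groups are labelled blastocyst and come from parthenogenetic activation, in which an egg is made to divide without sperm, so these embryos carry no paternal genome. The control group is labelled only as control, without a word on its handling, and is called fresh control here. Vitrification I is one of 3 vitrified groups, named vitrification, vitrification I and vitrification II, and the labels do not say how the procedures differ or which of them used the liquid helium named in the series title. Embryo age, recovery time after warming and breed are not given either. The protocol describes Smart-Seq2, which amplifies complementary DNA from very little RNA, applied to sorted single cells, while the source label says blastocyst, so that a library may hold 1 cell or many. The labels do not say whether libraries came from separate embryos, and p-values here reflect the variation among these libraries alone, part of which may be technical. Fewer cells of a type and less RNA per cell cannot be told apart in such data.

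Vitrification cools a cell so fast, in concentrated cryoprotectant, that water solidifies as a glass instead of ice. Cooling and warming expose a blastocyst to osmotic shrinkage and swelling, which act on its membranes, cytoskeleton and the fluid-filled blastocoel. The blastocyst has an outer epithelium, the trophectoderm, joined by tight junctions and desmosomes and rich in keratins 8 and 18, and an inner cell mass from which epiblast and hypoblast arise. Pig embryos are also known for their large store of lipid droplets.

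The libraries differed in ways that touch the gene results. An identifier with an FPKM above 0 (fragments scaled to gene length and library total) was found 16046, 15385 and 15383 times in the fresh control libraries and 12340, 14039 and 11550 times in vitrification I replicates 1, 2 and 3. The groups did not overlap, but the exact permutation test on 3 against 3 libraries cannot go below p = 0.1, which it gave here (two-sided, adjusted p = 0.325 over 13 library measures). The 13 genes of the mitochondrial genome took 43.9%, 37.6% and 38.3% of all FPKM in fresh control and 58.9%, 43.85% and 64.3% in vitrification I, which overlapped (exact p = 0.2, adjusted p = 0.371). Vitrification I replicate 2 was the nearest of its group to fresh control, with a Pearson r over genes of 0.884 to 0.894 against the control libraries, where replicate 1 had 0.832 to 0.849 and replicate 3 had 0.818 to 0.834. Within fresh control r ran from 0.924 to 0.978 and within vitrification I from 0.911 to 0.932. A fit with replicate 2 as the only vitrification I library was therefore made as well, in which that library is assumed to vary as the libraries of the other groups do, and its calls are given for some of the genes below. A list of 9 cumulus and granulosa markers summed to at most 1.08 FPKM in any of the 6 libraries, with HAS2, PTX3 and FSHR at 0 in each, and the leukocyte markers PTPRC and CD3E were at 0 throughout. A list of 14 leukocyte and erythroid markers, these 2 included, summed to 23.8 to 83.9 FPKM in fresh control and 23.2 to 63.4 in vitrification I. Of 8 maternal oocyte transcripts 7 lay under 1 FPKM in all 6 libraries, GDF9 being the exception. The part of these measures in the gene results was not tested, apart from the rescaling to non-mitochondrial FPKM given below.

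A gene was called when its moderated test in limma had an adjusted p under 0.05. Of the 9411 genes, 1752 were called (18.6%), 833 higher (8.85%) and 919 lower (9.77%) in vitrification I, and 3136 had an unadjusted p under 0.05. The call count was 832 without fresh control replicate 2, 920 without fresh control replicate 3 and 1011 without vitrification I replicate 1, and 242 genes, 191 of them higher, were called with vitrification I replicate 2 alone. When each library was rescaled to its non-mitochondrial total, the median difference over all genes moved from -0.06 to 0.26 on the log2 scale and the calls became 1342 higher and 502 lower. Results are therefore given as stable calls, meaning genes called in the same direction in each of 13 other versions of the analysis, including the 6 that leave out 1 control or vitrification I library among them. There were 569 stable calls (6.05%), 298 higher (3.17%) and 271 lower (2.88%). When replicate 2 was the only vitrification I library in the fit, 136 of the 298 (1.45% of all genes) and 45 of the 271 (0.478%) were still called. Of the falls described below, those 45 include FTL, TXN2, CLDN6, CLDN4, SLC25A11, PGS1, PFKL, TOLLIP, NDUFA10, ATP5F1D, MRPL28, MRPL57, CHCHD10, TMED3, ACADVL, ACADS, GPX1 and PLIN2. For comparison, the 3 libraries of one group lay wholly above or below those of the other in 36.2% of all genes, 17.3% with vitrification I higher and 18.9% with it lower. Genes named below as stable calls were also chosen for such a lack of overlap, which is therefore no further support for them. A log2 difference is a difference of mean log2(FPKM + 1) ± SE (n = 3 libraries per group), and adjusted p-values are those of limma with Benjamini-Hochberg adjustment over the 9411 genes.

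The largest rises were in genes of varied function. MID1IP1, which promotes the assembly of the fatty acid synthesis enzyme acetyl-CoA carboxylase, measured 1.52, 6.25 and 4.91 FPKM in the fresh control libraries and 153, 79.7 and 53.1 in vitrification I, a log2 difference of 4.2 ± 0.49 (adjusted p = 0.00016). SRPRB, which anchors the signal recognition particle receptor in the membrane of the endoplasmic reticulum (ER), went from 8.68, 8.901 and 9.18 FPKM to 267, 90.1 and 217 (4.14 ± 0.4, adjusted p = 3.71e-05). In both genes the lowest vitrification I library stood well above the highest control library. SLC30A9, a zinc transporter, had 3.62, 1.51 and 2.55 FPKM in fresh control against 70.98, 50.7 and 43.1 in vitrification I (3.99 ± 0.36). CREG1, a secreted and lysosomal glycoprotein, had 47.1, 11.6 and 14.3 against 329.8, 252 and 436 FPKM (3.98 ± 0.46). MKNK2, a kinase that phosphorylates the cap-binding factor eIF4E, had 1.94, 0.729 and 1.02 against 35.5, 24.2 and 33.9 FPKM (3.87 ± 0.39). A lack of overlap between the groups was a condition for naming these 5 genes and is not a further result. The same holds for the other 10 of the 15 largest rises, which run down to 3.45 in JDP2, a repressor of the AP-1 family.

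The largest falls included very abundant transcripts. FTL, ferritin light chain, part of the cell's iron store, measured 3674, 3740 and 3499 FPKM in the fresh control libraries and 149, 515 and 97.98 in vitrification I, a log2 difference of -4.21 ± 0.48 (adjusted p = 0.00016). TXN2, the mitochondrial thioredoxin, went from 84.1, 74.02 and 72.5 to 4.38, 6.94 and 2.26 FPKM (-3.91 ± 0.37, adjusted p = 3.71e-05). Again, by the rule of choice, no library of one group reached the range of the other. ACTB, cytoplasmic beta-actin, fell from 413, 589.5 and 407 to 31.9, 90.9 and 45.3 FPKM (-3.16 ± 0.5), with vitrification I replicate 2 the highest of its group, and was not called with that replicate alone. AMT, an enzyme of mitochondrial glycine cleavage, fell from 81.1, 223 and 271 to 13.3, 23.96 and 6.04 FPKM (-3.65 ± 0.53), and FAM151A from 45.7, 56.6 and 27.6 to 2.14, 3.24 and 1.59 (-3.71 ± 0.57). FTL and ACTB belong to families with near-identical copies and pseudogenes, among which read assignment can be uncertain.

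**Figure D1:**
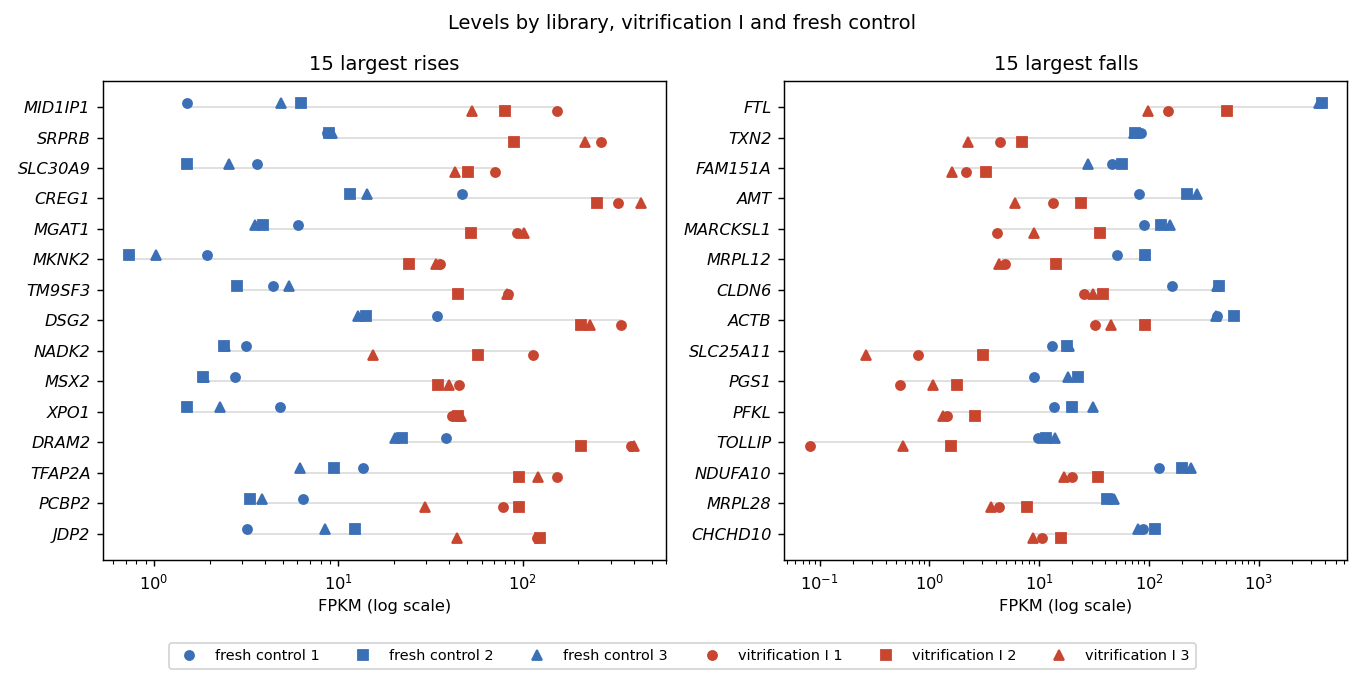
FPKM on a log axis of the 15 stable calls with the largest rise (left) and the 15 with the largest fall (right), by library: blue for fresh control, red for vitrification I, and circle, square and triangle for replicates 1, 2 and 3. By the rule of choice the 3 red points of each gene lie on one side of the 3 blue points. The genes run from MID1IP1, at 1.52 to 6.25 against 53.1 to 153 FPKM, to FTL, at 3499 to 3740 against 97.98 to 515 FPKM. In each of the 15 falls the square of vitrification I replicate 2 is the red point nearest to fresh control.

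Falls were more frequent among highly expressed genes. Genes were ordered by their mean level in the 5 libraries of vitrification and vitrification II, which are outside the comparison, and cut into 5 equal bins. In the lowest bin 8.39% were called higher and 3.40% lower. That bin reached down to a level of 0, where a gene passes the filter only through fresh control or vitrification I. Genes near the floor also have little room to fall, and the part of filter and floor in these shares was not tested. In the highest bin 5.58% were called higher and 18.65% lower, beside 8.85% and 9.77% over all genes. Of the 200 most abundant genes 6 were called higher and 77 lower, with a median log2 difference of -0.88. That 77 became 27 without fresh control replicate 2, 39 without fresh control replicate 3, 38 without vitrification I replicate 1 and 46 without replicate 3, and 3 with vitrification I replicate 2 alone. Rescaled to the non-mitochondrial total, the highest bin had 10.6% higher and 10.4% lower calls, and the lowest bin 13.3% and 1.96%. On that scale all 9411 genes gave 1342 higher and 502 lower calls. The median difference of the highest bin turned in sign, from -0.40 to 0.08, while that of all genes moved from -0.06 to 0.26. The 200 most abundant genes kept a negative median of -0.38 with 49 called lower. Stable calls in the highest bin were 49 higher and 117 lower.

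**Figure D2:**
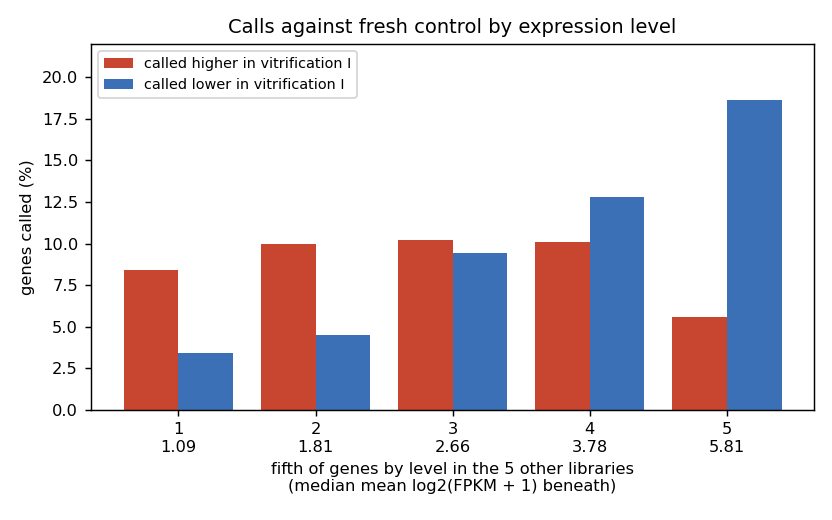
Percent of genes called higher (red) or lower (blue) in vitrification I than in fresh control, in 5 equal groups of genes ordered by their mean log2(FPKM + 1) in the 5 libraries of the other vitrified groups. Calls in the lower direction climb from 3.40% in the lowest bin to 18.65% in the highest, while calls in the higher direction are 8.39% in the lowest and 5.58% in the highest. Genes of the lowest bin have little room to fall, and the part of filter and floor in the climb was not tested.

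Genes of the secretory pathway were among those higher in vitrification I. Proteins bound for the membrane or the outside enter the ER through the signal recognition particle receptor and the translocon, are folded by chaperones, receive N-linked sugars, and move to the Golgi in coated vesicles, and those that misfold are returned to the cytosol by ER-associated degradation. Of 27 ER chaperones and disulfide isomerases tested, 3 were stably higher and 0 stably lower, beside 3.17% and 2.88% of all genes. Limma called 7 of the 27 higher and 0 lower, beside 8.85% and 9.77% of all genes. The 7 became 3 without the low-level filter, 12 with quantile normalization, 14 on the non-mitochondrial scale and 4 without vitrification I replicate 3. CALR, the calcium-binding lectin chaperone calreticulin, measured 95.96, 278 and 298 FPKM in fresh control and 2830, 1159 and 2568 in vitrification I (3.34 ± 0.46, adjusted p = 0.000475). ERO1B, an oxidase that drives disulfide formation, had 1.77, 1.16 and 1.32 against 19.2, 12.6 and 19.001 FPKM (2.88 ± 0.36), and TXNDC5, a disulfide isomerase, had 1.17, 2.11 and 2.02 against 4.91, 7.13 and 7.63 (1.45 ± 0.35). HSPA5, the main ER chaperone BiP, measured 121, 500.2 and 983 against 946, 1388 and 1118 FPKM, where the highest control library lay above the lowest vitrification I library, and did not pass (1.54 ± 0.55, adjusted p = 0.0624). The median log2 difference of the 27 was 0.83, beside -0.06 over all genes. Fresh control was itself uneven here, with replicate 1 at -1.07 and replicates 2 and 3 at 0.43 and 0.71 around the control mean, so that the list's median in vitrification I, 0.77, 0.90 and 1.01, lay close above the higher control libraries.

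Beyond folding, 2 of 33 genes of ER translocation were stably higher and 1 stably lower, beside 3.17% and 2.88% of all genes. Limma called 6 of the 33 higher and 1 lower, beside 8.85% and 9.77% of all genes. The 6 became 3 without fresh control replicate 2 and without vitrification I replicate 3. SEC63, which couples the translocon to BiP, rose beside SRPRB, from 8.06, 7.52 and 6.501 to 40.96, 25.98 and 51.5 FPKM (2.23 ± 0.41, adjusted p = 0.00269). GET3, the ATPase that delivers tail-anchored proteins, fell from 42.5, 29.3 and 44.2 to 9.97, 18.2 and 9.25 FPKM (-1.6 ± 0.36). In ER-associated degradation 3 of 20 genes were stably higher and 0 stably lower, with a list median of 0.77. Limma called 6 of the 20 higher and 0 lower. The 6 became 10 on the non-mitochondrial scale and 3 without fresh control replicate 2. EDEM1 and EDEM3 encode mannosidase-like proteins that mark misfolded glycoproteins, and SEL1L holds the HRD1 ubiquitin ligase complex together. EDEM3 measured 1.22, 1.51 and 1.72 FPKM in fresh control and 20.9, 11.8 and 27.3 in vitrification I (3.01 ± 0.42), EDEM1 rose by 2.31 ± 0.42 and SEL1L by 1.86 ± 0.41. All 3 were free of overlap between groups, as the rule of choice required.

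Among 34 genes of N-glycosylation 4 were stably higher and 0 stably lower, beside 3.17% and 2.88% of all genes, with a list median of 0.51. Limma called 7 of the 34 higher and 2 lower, beside 8.85% and 9.77% of all genes. The 7 became 11 on the non-mitochondrial scale. The 2 ranged from 0 to 4 when 1 control or vitrification I library was left out. STT3B, a catalytic subunit of the oligosaccharyltransferase that attaches the sugar tree, had 1.5999, 1.78 and 3.38 FPKM in fresh control and 33.5, 14.6 and 32.99 in vitrification I (3.06 ± 0.47, adjusted p = 0.000904). Further along, MGAT1, MAN2A1 and MGAT4A turn that tree into the complex type in the Golgi. MGAT1 had 6.05, 3.89 and 3.52 against 92.6, 52.2 and 101 FPKM (3.89 ± 0.37), MAN2A1 had 1.78, 1.07 and 1.07 against 16.5, 13.01 and 21.6 (2.95 ± 0.39), and MGAT4A had 2.76, 2.05 and 2.28 against 12.6, 10.03 and 11.1 (1.86 ± 0.42). Vitrification I replicate 2 was the lowest of its group for all 4, yet above the controls, as the rule of choice required. The COPI and COPII coats did not move one way, with 1 of 31 genes stably higher and 2 stably lower. Limma called 7 of the 31 higher and 5 lower, which became 3 and 2 without fresh control replicate 2. The cargo receptor TMED10 rose by 1.59 ± 0.38, while TMED3 of the same family fell by 1.58 ± 0.33 and PREB, which activates the COPII GTPase, fell by 1.83 ± 0.39. YKT6, a SNARE of Golgi fusion and the only stable call among 26 Golgi organisation genes, fell from 68.9, 53.6 and 39.6 to 7.62, 19.1 and 8.32 FPKM (-2.2 ± 0.4). Limma called 2 of these 26 higher and 4 lower, which became 1 and 1 without fresh control replicate 2.

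Some genes of metal and calcium transport showed rises of similar size. Of 18 genes of zinc and other metal transport limma called 6 higher and 3 lower, beside 8.85% and 9.77% of all genes. Of these, 4 were stably higher and 1, MT1A, was stably lower, and the list median was 1.04. SLC31A1, the copper importer, had 417, 135 and 90.3 FPKM in fresh control and 1864, 799 and 1833 in vitrification I (3.01 ± 0.5, adjusted p = 0.00147), the highest level of the 4. SLC30A1, the zinc exporter of the plasma membrane, had 1.501, 0.1904 and 0.162 against 13.8, 7.24 and 13.2 FPKM (2.99 ± 0.42), and SLC30A5, which loads zinc into the secretory pathway, had 3.44, 1.87 and 4.06 against 24.2, 11.7 and 21.4 (2.27 ± 0.47). MT1A, a zinc-binding metallothionein, was listed at 2.27, 5.73 and 2.84 FPKM in fresh control and at 0 in all 3 vitrification I libraries, while vitrification had 3.38 and 9.53 and vitrification II had 28.4, 10.6 and 18.9. It was the only gene with a symbol among 5 identifiers at 1 FPKM or more in each control library and at 0 in each vitrification I library, and metallothionein copies are so alike that reads can be split among them. Of 19 calcium handling genes limma called 4 higher and 1 lower, with a list median of 0.53. The stable calls were 2 rises, both of them pumps. ATP2A2, the ER pump SERCA2, had 2.297, 1.55 and 2.88 against 23.04, 17.2 and 22.5 FPKM (2.77 ± 0.41, adjusted p = 0.000758), and ATP2C1, the Golgi pump, had 0.446, 0.5399 and 0.955 against 7.23, 6.73 and 10.99 (2.48 ± 0.37).

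Lysosomal and endocytic genes changed singly. Of 34 lysosomal hydrolases and membrane proteins 3 were stably higher, CREG1 among them, and 0 stably lower. Limma called 4 of the 34 higher and 4 lower, beside 8.85% and 9.77% of all genes, and the list median was -0.23. ASAH1, acid ceramidase, measured 28.1, 18.1 and 24.2 FPKM in fresh control and 202, 93.2 and 613 in vitrification I (3.24 ± 0.54), a wide spread with replicate 3 far above replicates 1 and 2, and TPP1, a peptidase, had 1.68, 4.51 and 2.52 against 10.7, 10.7 and 18.5 (1.89 ± 0.42). DRAM2, a lysosomal membrane protein linked to autophagy and outside that list, had 38.5, 22.2 and 20.3 against 386, 208 and 401 FPKM (3.57 ± 0.37, adjusted p = 8.21e-05). The receptors LRP2 (megalin) and IGF2R and the coat protein CLTC (clathrin heavy chain) were the 3 stable rises among 31 endocytosis and sorting genes. That list as a whole leaned the other way, with a median of -0.34. Limma called 3 of the 31 higher and 7 lower, beside 8.85% and 9.77% of all genes, with 0 stable falls. LRP2 had 7.797, 5.81 and 9.38 against 48.7, 49.9 and 58.3 FPKM (2.64 ± 0.49), IGF2R had 0.873, 1.08 and 1.06 against 8.37, 6.72 and 11.6 (2.28 ± 0.35) and CLTC had 13.9, 14.2 and 22.8 against 45.1, 58.2 and 47.7 (1.54 ± 0.34). In each the 3 vitrification I libraries lay above all 3 controls, as the rule of choice required.

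Attachment genes rose in part. Integrins, laminins and the proteoglycan syndecan tie epithelial cells to matrix. Of 19 such genes 4 were stably higher and 0 stably lower, beside 3.17% and 2.88% of all genes, with a list median of 0.99. Limma called 6 of the 19 higher and 2 lower, beside 8.85% and 9.77% of all genes. These ranged from 4 to 8 and from 0 to 1 when 1 control or vitrification I library was left out. SDC1 (syndecan-1) measured 2.66, 2.04 and 3.12 FPKM in fresh control and a narrow 21.7, 22.2 and 23.2 in vitrification I (2.71 ± 0.36, adjusted p = 0.000428). LAMC1, a laminin chain, had 2.73, 1.03 and 1.41 against 11.2, 11.8 and 21.8 FPKM (2.53 ± 0.42), and the integrin subunits ITGAV and ITGA6 had 0.655, 0.915 and 1.195 against 7.94, 7.64 and 12.1 (2.39 ± 0.45) and 0.433, 1.27 and 0.409 against 9.31, 8.84 and 3.31 (2.19 ± 0.42). The vitrification I libraries were higher than every control in these 4 genes, as the rule of choice required.

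Junction genes divided. DSG2 and DSC2, the cadherins of the desmosome, rose, DSG2 from 34.2, 14.1 and 12.8 to 341, 208 and 231 FPKM (3.72 ± 0.4, adjusted p = 9.22e-05) and DSC2 from 16.2, 22.5 and 24.2 to 51.2, 47.6 and 70.9 (1.39 ± 0.35). JUP, the plakoglobin that links those cadherins to keratin inside the cell, fell from 19.5, 46.03 and 42.9 to 4.62, 8.39 and 2.79 FPKM (-2.57 ± 0.42, adjusted p = 0.00121). Groups did not overlap for these 3 desmosome genes, which was a condition for naming them. The tight junction claudins CLDN6 and CLDN4 fell, CLDN6 from 159.9, 435 and 414 to 25.8, 38.1 and 30.9 FPKM (-3.26 ± 0.47) and CLDN4 from 114, 209 and 217 to 13.5, 31.4 and 31.2 (-2.81 ± 0.4). The polarity protein PARD6B rose from 12.1, 4.196 and 4.24 to 49.1, 24.8 and 35.3 FPKM (2.34 ± 0.43). Of 25 tight and adherens junction genes these were the stable calls, 1 higher and 2 lower, beside 3.17% and 2.88% of all genes. Limma called 6 of the 25 higher and 4 lower, beside 8.85% and 9.77% of all genes. The 6 and 4 became 1 and 2 without fresh control replicate 2. They became 2 and 2 without fresh control replicate 3 or vitrification I replicate 1.

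Keratins 8 and 18 were called lower but not stably. KRT8 measured 6343, 10329 and 8634 FPKM in fresh control and 1097, 3394 and 1734 in vitrification I (-2.15 ± 0.46, adjusted p = 0.00627), a call lost without the low-level filter (adjusted p = 0.0843). KRT18 measured 3846, 4806 and 4527 against 1088, 2082 and 2426 (-1.31 ± 0.35, adjusted p = 0.0192), a call lost in 6 alternatives, where without fresh control replicate 2 the adjusted p was 0.0812, without fresh control replicate 3 it was 0.0689 and without vitrification I replicate 1 it was 0.107. The summed level of a list of 27 trophectoderm markers, carried by these keratins, was 10565, 15630 and 13610 FPKM in fresh control and 2944, 6245 and 4775 in vitrification I (exact p = 0.1, adjusted p = 0.325). LMNA, the nuclear lamin A/C, fell from 9.496, 21.4 and 14.4 to 1.54, 2.38 and 1.13 FPKM (-2.54 ± 0.42).

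Stable calls among cytoskeletal genes came in a share close to the 6.05% of all genes. Limma called 9 of 37 actin and actin-binding genes lower and 4 higher, with a list median of -0.52, and 7 of 24 tubulin and motor genes lower and 0 higher (at an unadjusted p under 0.05, 11 and 0), with a median of -0.72, beside 9.77% of all genes called lower and 8.85% higher. The 9 and 7 became 4 and 3 without fresh control replicate 2, and the 7 became 11 or 3 without vitrification I replicate 2 or 3. The 4 became 1, 2 and 2 without fresh control replicate 2, fresh control replicate 3 and vitrification I replicate 1. Of the 37 actin and actin-binding genes 1 was stably lower (ACTB) and 1 stably higher, LASP1, a focal adhesion protein with 13.2, 8.17 and 8.66 FPKM in fresh control and 198, 53.002 and 86.1 in vitrification I (3.18 ± 0.43). MARCKSL1, a membrane protein that binds actin, fell from 89.9, 127 and 155 to 4.16, 36.03 and 8.91 (-3.3 ± 0.6). TUBA1B and TUBA1A were the 2 stable falls among 24 tubulin and motor genes. TUBA1B had 848, 2007 and 1233 against 151, 316 and 155 FPKM (-2.71 ± 0.51), and TUBA1A had 239, 553 and 464 against 55.6, 130.2 and 78.6 (-2.24 ± 0.44). The alpha-tubulin genes are near-identical, so reads may be split between them.

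Water and ion transport underlies the blastocoel. AQP3, a water and glycerol channel, measured 133, 799 and 406 FPKM in fresh control and 37.4, 62.6 and 56.8 in vitrification I (-2.76 ± 0.5, adjusted p = 0.00233). The controls differed from each other several-fold, but the lowest still exceeded every vitrification I library, as the rule of choice required. LRRC8D, a subunit of the volume-regulated anion channel, had 0.405, 0.0509 and 0.05097 against 12.6, 5.61 and 5.67 FPKM (2.87 ± 0.38, adjusted p = 0.000422), and the chloride channel protein CLIC4 had 34.97, 57.02 and 45.99 against 185, 167 and 115 (1.74 ± 0.34).

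A few lipid synthesis genes rose and a droplet coat gene fell. SQLE, squalene epoxidase of cholesterol synthesis, had 21.4, 34.99 and 56.8 FPKM in fresh control and 135, 172 and 189 in vitrification I (2.2 ± 0.42). Among 22 cholesterol synthesis genes 3 were stably higher and 0 stably lower, while limma called 5 higher and 2 lower, beside 8.85% and 9.77% of all genes. The list median was 0.84, although the list's median by library was 0.02 in vitrification I replicate 1 against 0.38 in fresh control replicate 3. SCD, which makes monounsaturated fatty acids, had 24.5, 23.7 and 30.4 against 136, 150.02 and 307 FPKM (2.78 ± 0.45). With MID1IP1 it made up the 2 stable rises of 18 fatty acid and glycerolipid synthesis genes. Limma called 4 of the 18 higher and 2 lower, again beside 8.85% and 9.77% of all genes. PLIN2, the coat protein of lipid droplets, fell from 732, 950.1 and 794 to 199.9, 214 and 223 FPKM (-1.95 ± 0.31, adjusted p = 0.00116), with both groups narrow. Fatty acid oxidation had 3 stable falls in 21 genes, namely ACADVL from 58.2, 53.7 and 62.6 to 11.1, 14.2 and 3.91 FPKM (-2.61 ± 0.42), ACADS (-1.98 ± 0.4) and the acylcarnitine carrier SLC25A20 (-2.03 ± 0.43). Limma called 5 of the 21 lower and 0 higher. The list median was -0.12, beside -0.06 over all genes, and it became 0.29 on the non-mitochondrial scale.

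Ribosomal protein genes had negative median differences, but few of the single calls were stable. Of 25 large-subunit genes 25 had a difference below 0 and the list median was -1.05. Of 29 small-subunit genes the median was -1.08, and both medians stayed negative under 3 other scalings. Limma called 12 of 25 and 15 of 29 lower and 0 of either list higher, beside 9.77% lower and 8.85% higher of all genes. At an unadjusted p under 0.05 the higher count was also 0, with 20 and 25 lower. The calls were 7 and 9 with quantile normalization. They were 3 and 1 without fresh control replicate 2 and 4 and 5 without its replicate 3. Leaving out vitrification I replicate 1 gave 4 and 6, and leaving out its replicate 3 gave 6 and 6. With vitrification I replicate 2 alone they were 0 and 0, although both list medians of that library, -0.73 and -0.73, lay under every control library. The 4 stable calls were RPLP1, RPL14, RPL37 and RPS18. RPLP1 had 1594, 2286 and 2048 FPKM in fresh control against 609, 896 and 440.2 in vitrification I (-1.65 ± 0.35, adjusted p = 0.00555), and RPS18 had 1086, 1598 and 1599 against 406, 622 and 407 (-1.58 ± 0.33). Ribosomal proteins held 8.64%, 10.9% and 10.2% of non-mitochondrial FPKM in fresh control and 6.36%, 6.83% and 5.61% in vitrification I, without overlap (exact p = 0.1, adjusted p = 0.325). Their many pseudogenes make single-gene values less certain.

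Translation factors did not share a direction. EIF3F, a subunit of the initiation factor eIF3, rose from 2.58, 3.07 and 7.83 to 31.7, 30.4 and 30.05 FPKM (2.65 ± 0.39, adjusted p = 0.000726), and EIF4G2, a scaffold used in cap-independent initiation, from 23.4, 16.6 and 27.4 to 69.5, 79.5 and 56.6 (1.58 ± 0.32). EIF1, which scans for the start codon, fell from 424, 495 and 527 to 123, 239 and 129 FPKM (-1.62 ± 0.36). With MKNK2 they are 4 of the 6 stable calls in 35 initiation genes, 4 higher and 2 lower. The cytoplasmic poly(A)-binding proteins PABPC1 and PABPC4, which protect messenger RNA tails, rose from 66.5, 40.2 and 56.2 to 152, 187 and 144 FPKM (1.57 ± 0.35) and from 5.11, 6.902 and 10.1 to 23.7, 37.02 and 27.4 (1.88 ± 0.36).

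Nuclear genes for the mitochondrial ribosome, respiratory chain and tricarboxylic acid cycle had median differences below 0. Mitochondria carry their own ribosome, which makes a few subunits of the respiratory chain, while the other subunits are encoded in the nucleus and imported. Of 64 mitochondrial ribosomal protein genes 8 were stably lower, with a median of -0.69. Limma called 17 lower and 0 higher (at an unadjusted p under 0.05, 26 and 0), beside 9.77% lower and 8.85% higher of all genes. The 17 became 9 on the non-mitochondrial scale, 11 without fresh control replicate 2, 8 without fresh control replicate 3, 11 without vitrification I replicate 3 and 3 with vitrification I replicate 2 alone. MRPL12 measured 50.8, 91.1 and 91.3 FPKM in fresh control and 4.895, 14.2 and 4.31 in vitrification I (-3.29 ± 0.47, adjusted p = 0.000696). MRPL28 had 44.5, 41.3 and 47.95 against 4.297, 7.65 and 3.596 FPKM (-2.94 ± 0.39, adjusted p = 0.000428), and MRPL57 had 32.4, 19.8 and 13.1 against 2.66, 3.64 and 4.16 (-2.27 ± 0.37). In MRPL12 and MRPL28 replicate 2 of vitrification I was the nearest to the controls, without reaching them.

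For the respiratory chain, the nuclear subunits of complex I had a median of -0.54 with 2 stable falls of 33, and those of complexes II to IV had -0.52 with 4 of 23, though the scaling to non-mitochondrial FPKM brought these medians to -0.05 and -0.02. NDUFA10 of complex I fell from 124, 199 and 241 to 19.7, 34.4 and 16.96 FPKM (-2.95 ± 0.38, adjusted p = 0.000341). CYC1, cytochrome c1 of complex III, fell from 281, 451 and 289.7 to 62.1, 86.01 and 39.8 FPKM (-2.46 ± 0.43), and SDHA, the catalytic subunit of complex II, from 63.5, 88.7 and 107 to 15.2, 41.1 and 14.2 (-1.97 ± 0.4). ATP5F1D, a stalk subunit of ATP synthase, fell from 90.2, 145 and 138 to 25.8, 30.8 and 16.6 FPKM (-2.31 ± 0.35). Groups did not overlap in these 4 genes, which was a condition for naming them. The mitochondrially encoded genes lay on both sides of 0. Of 13 tested, 7 had a difference above 0 and 6 below. ND4 and ND4L, which share a transcript, were called higher but not stably, ND4 with 20344, 12388 and 11900 against 38564, 23017 and 42097 FPKM (1.21 ± 0.35, adjusted p = 0.0247) and ND4L with 0.94 ± 0.31 (adjusted p = 0.0474), and both calls were lost without fresh control replicate 2.

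Enzymes of the tricarboxylic acid cycle had 4 stable falls in 21 genes and a median of -0.76. MDH2, malate dehydrogenase, had 144, 297 and 288 against 23.2, 69.6 and 38.7 FPKM (-2.51 ± 0.42), and the isocitrate dehydrogenase genes IDH2 and IDH3G differed by -2.05 ± 0.39 and -1.87 ± 0.37. SLC25A11, the oxoglutarate carrier of the inner membrane, fell from 12.9, 17.97 and 18.7 to 0.782, 3.08 and 0.264 FPKM (-3.05 ± 0.42), and PGS1, an enzyme of cardiolipin synthesis, from 8.92, 22.3 and 18.3 to 0.5401, 1.77 and 1.07 (-2.99 ± 0.4). CHCHD10, a small protein of the intermembrane space, fell from 87.4, 112 and 79.8 to 10.7, 15.8 and 8.79 FPKM (-2.91 ± 0.4, adjusted p = 0.000521). TOMM22, the receptor of the outer membrane import pore, went the other way, from 69.4, 54.3 and 55.9 to 382, 254 and 111 FPKM (1.88 ± 0.41), and so did NADK2, the mitochondrial NAD kinase, from 3.14, 2.41 and 2.42 to 114, 57.2 and 15.3 (3.71 ± 0.55).

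Of 16 glycolysis genes 4 were stably lower and 2 stably higher, and the median was -1.02. PFKL, a phosphofructokinase of the committed step, fell from 13.5, 19.7 and 30.7 to 1.44, 2.605 and 1.33 FPKM (-2.95 ± 0.43, adjusted p = 0.000696). ALDOA, aldolase A, fell from 205, 390.4 and 299 to 25.6, 87.4 and 26.5 FPKM (-2.85 ± 0.45), and ENO1, enolase 1, from 162, 281 and 282 to 26.1, 74.7 and 21.2 (-2.72 ± 0.46). SLC2A1, the glucose transporter GLUT1, fell from 37.5, 53.7 and 91.9 to 8.1, 15.02 and 18.7 FPKM (-2.03 ± 0.39), while HK2, hexokinase 2, rose from 1.45, 0.515 and 1.18 to 8.15, 5.95 and 4.35 (1.8 ± 0.36). The other rise, named after its values were seen, was the mutase PGAM1, from 7.003, 4.06 and 6.47 to 21.9, 18.6 and 24.4 FPKM (1.75 ± 0.38). In the pentose phosphate branch, which makes NADPH, PGD, TALDO1 and TKT were the 3 stable falls of 25 genes. TKT, transketolase, had 277, 410.4 and 455 against 81.5, 156 and 61.7 FPKM (-2.001 ± 0.41), and PGD and TALDO1 differed by -1.8 ± 0.38 and -1.75 ± 0.35. The controls were above all vitrification I libraries in each of these genes except HK2 and PGAM1, where the order was the reverse. Such a lack of overlap was a condition for naming genes by the rule and is not a further result.

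Several genes that remove oxidants fell. PRDX6, a peroxiredoxin, measured 845, 906 and 803 FPKM in fresh control and 226, 249 and 117 in vitrification I (-2.18 ± 0.37, adjusted p = 0.00154). With TXN2 it made the 2 stable calls among 18 thioredoxin and peroxiredoxin genes. Limma called 4 of the 18 lower and 0 higher (at an unadjusted p under 0.05, 6 and 1). The 4 became 2 without fresh control replicate 2 or 3 and without vitrification I replicate 1 or 3. Of 21 genes of glutathione and oxidant removal 2 were stably lower and 1 stably higher, beside 2.88% and 3.17% of all genes. The rise was the transcription factor NFE2L1 (1.48 ± 0.32, named after its values were seen). Limma called 4 of the 21 higher and 4 lower, beside 8.85% and 9.77% of all genes. These ranged from 1 to 2 and from 2 to 5 when 1 control or vitrification I library was left out. The list median was -0.31, and 0.01 on the non-mitochondrial scale. GPX1, glutathione peroxidase, fell from 35.6, 46.2 and 54.4 to 18.6, 5.82 and 6.75 FPKM (-2.18 ± 0.43), and GSS, glutathione synthetase, from 87.6, 59.8 and 36.3 to 11.1, 17.02 and 8.48 (-2.2 ± 0.43). The superoxide dismutases SOD1 and SOD2 and catalase (CAT) overlapped between the groups and were not called, with adjusted p of 0.544, 0.636 and 0.415. In iron metabolism NFS1 and GLRX5, which build iron-sulfur clusters, fell by 1.55 ± 0.36 and 1.66 ± 0.38 beside FTL, while PCBP2, an RNA-binding protein that also hands iron to ferritin, rose from 6.46, 3.32 and 3.87 to 78.2, 95.5 and 29.5 FPKM (3.51 ± 0.45).

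Of 39 genes of the nuclear pore and export 3 were stably higher, all of them transport receptors, while the list median was 0.03. Limma called 5 of the 39 higher and 1 lower, beside 8.85% and 9.77% of all genes. XPO1, the main exporter, had 4.81, 1.52 and 2.28 FPKM in fresh control and an even 41.2, 44.5 and 45.99 in vitrification I (3.62 ± 0.39, adjusted p = 9.22e-05). The importins KPNA4 and TNPO1 had 8.002, 2.33 and 2.17 against 30.7, 30.5 and 22.1 FPKM (2.64 ± 0.41) and 4.25, 2.06 and 2.38 against 18.3, 24.99 and 12.1 (2.31 ± 0.37). Fresh control replicate 1 was the highest control for each of the 3. Splicing genes did not share a direction, with 2 of 51 stably higher and 3 stably lower. HNRNPL, a splicing regulator, rose from 6.84, 1.597 and 2.02 to 14.2, 34.9 and 47.4 FPKM (2.91 ± 0.48), whereas the core components SF3A2 and PRPF31 fell from 3.77, 5.36 and 6.62 to 0, 0.662 and 0 (-2.37 ± 0.39) and from 3.59, 5.12 and 6.51 to 0.403, 0.704 and 0.04998 (-2.13 ± 0.36). In the replication list MCM3, a subunit of the helicase, rose from 2.48, 1.33 and 1.001 to 31.3, 15.5 and 5.02 FPKM (2.54 ± 0.51) and RFC5 of the clamp loader fell from 9.16, 7.12 and 7.2 to 1.302, 1.36 and 1.35 (-1.91 ± 0.38).

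Calls in the stress and cell death lists were for the most part not stable. Limma called 2 of 24 genes of the unfolded protein and integrated stress response higher and 4 lower, 3 of 21 p53 targets higher and 2 lower, and 1 of 17 immediate early genes higher and 4 lower, with 0 stable calls in these lists. Of 21 genes that promote apoptosis 1 was called higher and 4 lower, and of 15 that inhibit it 4 higher and 2 lower, beside 8.85% and 9.77% of all genes. The stable calls here were BID, which links death receptors to mitochondria, at -1.85 ± 0.38, and BAG6, a chaperone of membrane proteins, at -1.57 ± 0.36, both named after their values were seen. Without fresh control replicate 2 the higher calls in all of these 5 lists became 0 and the lower calls 1 or 2. Of the 37 proteasome genes limma called 5 lower and 0 higher (at an unadjusted p under 0.05, 11 and 0), beside the 9.77% lower of all genes, and 0 were stable. Leaving out vitrification I replicate 1, 2 or 3 turned the 5 into 1, 11 or 2, and leaving out fresh control replicate 2 or 3 turned it into 3. In the cytosol the co-chaperones CDC37 and PTGES3 moved apart, by -1.89 ± 0.39 and 1.43 ± 0.31. HSPA8 measured 914, 1493 and 1208 against 596, 905 and 484 FPKM and did not pass (-0.88 ± 0.33, adjusted p = 0.0759), and HSPD1 differed by -0.06 ± 0.34 (adjusted p = 0.931). Of the regulators of ER and integrated stress, ATF4 and DDIT3 overlapped and were not called (adjusted p = 0.473 and adjusted p = 0.443), and XBP1 was called lower, not stably, with 60.7, 143 and 75.5 against 20.4, 40.8 and 47.96 FPKM (-1.32 ± 0.41). The cold-inducible RBM3 was called lower, not stably, with 186, 243 and 159.7 against 101, 72.7 and 45.8 FPKM (-1.46 ± 0.39, adjusted p = 0.0181), and CIRBP, also cold-inducible, was not called (-0.6 ± 0.42, adjusted p = 0.338). Of cell death genes, MCL1, which protects from apoptosis, was called higher, not stably, with 3.01, 3.96 and 4.77 against 11.4, 8.64 and 14.5 FPKM (1.34 ± 0.39), and BAX overlapped (-0.51 ± 0.44, adjusted p = 0.451). Without fresh control replicate 2 the calls of XBP1, RBM3 and MCL1 were lost, at adjusted p = 0.170, 0.0820 and 0.0792.

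Signalling and lineage genes were tested as single genes and short lists. The regulatory and catalytic phosphoinositide 3-kinase subunits PIK3R1 and PIK3CB rose, from 6.19, 1.39 and 1.09 to 27.4, 28.1 and 20.4 FPKM (2.98 ± 0.44) and from 3.64, 0.5896 and 2.29 to 23.4, 10.9 and 15.1 (2.53 ± 0.45). FZD5, a Wnt receptor, rose from 1.95, 2.301 and 2.398 to 12.5, 11.5 and 15.2 FPKM (2.12 ± 0.41) and WWC1, an upstream element of the Hippo pathway, from 1.25, 0.402 and 0.291 to 12.4, 12.8 and 13.6 (3.13 ± 0.38). TEAD4, the factor through which Hippo signalling specifies trophectoderm, fell from 7.57, 9.81 and 17.7 to 1.08, 2.01 and 1.13 FPKM (-2.34 ± 0.49, adjusted p = 0.00514). TFAP2A, a trophectoderm transcription factor, rose from 13.7, 9.42 and 6.21 to 154, 95.8 and 121 FPKM (3.56 ± 0.42, adjusted p = 0.00016), and the homeobox gene MSX2 from 2.75, 1.83 and 1.87 to 45.1, 34.7 and 39.7 (3.7 ± 0.37). Of the other trophectoderm factors, CDX2, GATA3 and TFAP2C overlapped and were not called, with adjusted p of 0.859, 0.555 and 0.585. GATA2 overlapped too, with 10.96, 35.4 and 29.4 FPKM in fresh control and 12.2, 22.2 and 8.44 in vitrification I. ELF3 was lower in each vitrification I library than in any control, with 3.66, 6.16 and 10.3 against 0.847, 1.42 and 0.480 FPKM. Such a separation downward was seen in 18.9% of all genes. Of 23 trophectoderm genes tested 3 were stably higher and 3 stably lower. LIN28A, an RNA-binding protein of pluripotent cells, fell from 9.497, 6.44 and 6.96 to 0.502, 1.66 and 0.328 FPKM (-2.29 ± 0.47, adjusted p = 0.0047). NANOG was under 1 FPKM in 5 of 6 libraries and GATA6, a hypoblast factor, overlapped (0.33 ± 0.39, adjusted p = 0.597).

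**Figure D3:**
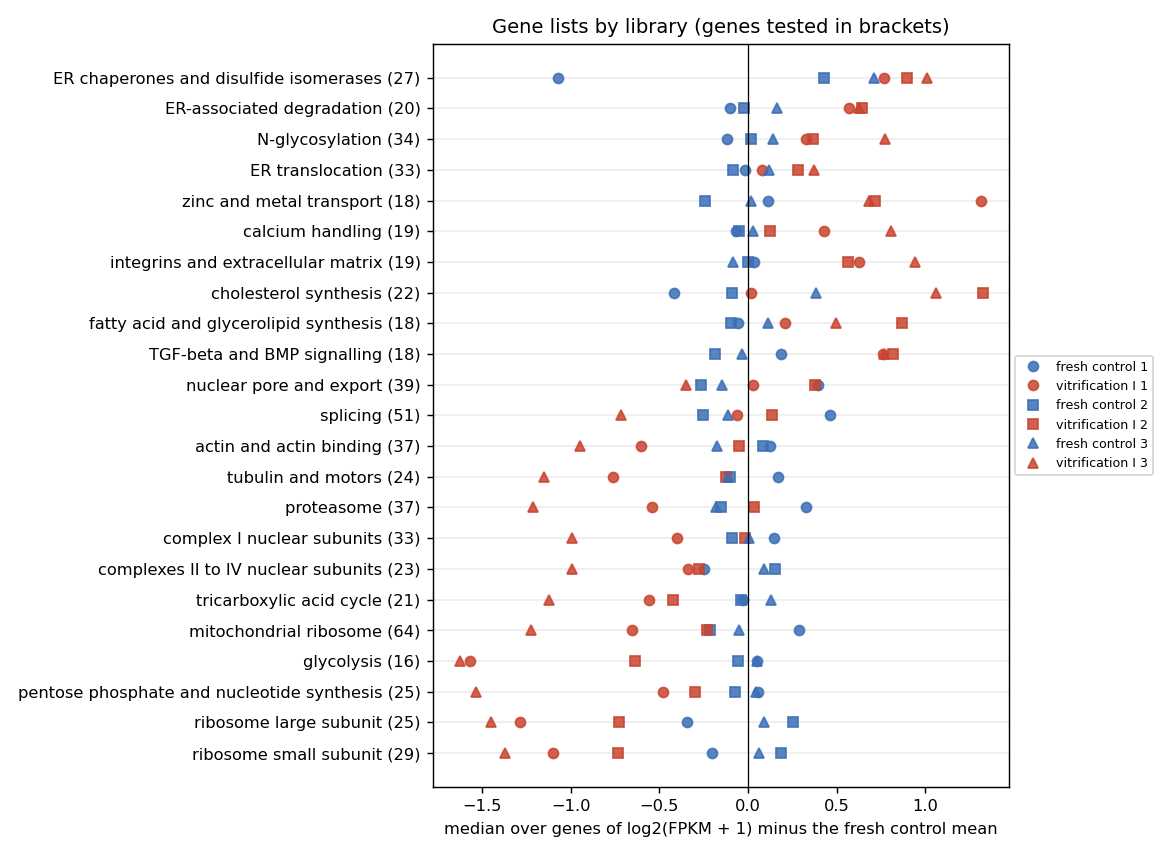
Median, over the tested genes of each list, of log2(FPKM + 1) minus the fresh control mean of the gene, for each fresh control (blue) and vitrification I (red) library, with the number of genes in brackets. Red points lie right of the blue ones for zinc and metal transport and left of them for glycolysis and both ribosomal subunits, while vitrification I replicate 2 (red square) lies among the controls for actin, the proteasome and complex I.

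Vitrification I was also tested directly against each of the other vitrified groups. Against vitrification, with 2 libraries analysed, limma called 530 genes (5.63%), 114 higher (1.21%) and 416 lower (4.42%) in vitrification I, a split that became 292 and 312 with quantile normalization and 211 and 176 with median centring. Limma called 5 genes without vitrification replicate 1, 105 without vitrification replicate 2 and 110 without vitrification I replicate 1, while leaving out vitrification I replicate 2 or 3 gave 822 or 294. Against vitrification II it called 3614 (38.4%), 353 higher (3.75%) and 3261 lower (34.7%). This split depended on the scaling, with 702 and 1555 on the non-mitochondrial scale, 1373 and 1276 with quantile normalization and 1550 and 1093 with median centring. The stable calls against fresh control that were also called in the same direction against both vitrified groups numbered 40 higher (0.425% of genes) and 138 lower (1.47%). These became 103 and 121 with quantile normalization and 98 and 73 with median centring, 22 and 40 without the second vitrification library, and 0 and 4 without the first. Leaving out vitrification I replicate 1 gave 16 and 37, and leaving out its replicate 3 gave 36 and 80. When vitrification I was represented by replicate 2 alone, limma called 0 genes against vitrification (1138 at an unadjusted p under 0.05).

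Members of that set include several of the largest changes above. CREG1 had a mean of 339 FPKM in vitrification I, 24.3 in fresh control, 28.7 in vitrification and 53.7 in vitrification II, and vitrification I exceeded vitrification by 3.51 ± 0.51 and vitrification II by 2.63 ± 0.46 (adjusted p = 0.00305 and adjusted p = 0.000634 in limma). DRAM2 exceeded vitrification by 3.24 ± 0.42 and vitrification II by 1.96 ± 0.37, and MID1IP1 did so by 3.77 ± 0.55 and 2.47 ± 0.49. FTL had a mean of 254 FPKM in vitrification I but 3638 in fresh control, 2020 in vitrification and 3780 in vitrification II, and fell short of these vitrified groups by 3.32 ± 0.54 and 4.23 ± 0.48 on the log2 scale. TOLLIP, an adaptor of endosomes and Toll-like receptor signalling, had 9.78, 11.6 and 13.8 FPKM in fresh control, 18.98 and 10.8 in vitrification and 25.9, 38.6 and 21.5 in vitrification II, against 0.0817, 1.57 and 0.569 in vitrification I. CLDN6 likewise stood at 299.9 and 208 FPKM in vitrification and 242, 249.8 and 741 in vitrification II, above all 3 vitrification I libraries. The calls against vitrification of these 6 genes were lost without vitrification replicate 1 and with vitrification I replicate 2 alone.

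For 6 other large changes the values of the 3 vitrified groups, whose comparisons share the fresh control libraries, are given side by side. The log2 difference from fresh control of CHCHD10 was -2.91 in vitrification I, -2.85 in vitrification and -2.01 in vitrification II. For TXN2 the 3 values were -3.91, -2.87 and -1.71. For MKNK2 they were 3.87, 2.5 and 2.9, for TFAP2A 3.56, 1.45 and 3.04, and for XPO1 3.62, 1.49 and 3.18. In vitrification TFAP2A and XPO1 did not pass against fresh control (adjusted p = 0.111 and adjusted p = 0.0874 in limma), and vitrification I exceeded vitrification by 2.11 (adjusted p = 0.0196) and 2.13 (adjusted p = 0.0162). These 2 calls were lost without vitrification replicate 1 (adjusted p = 0.148 and 0.123 in limma), without vitrification replicate 2 (0.0601 and 0.0551) and with vitrification I replicate 2 alone (0.281 and 0.187), and that of TFAP2A also without vitrification I replicate 1 (adjusted p = 0.0743). LIN28A differed in sign, at -2.29 in vitrification I, -1.64 in vitrification and 2.44 in vitrification II.

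**Figure D4:**
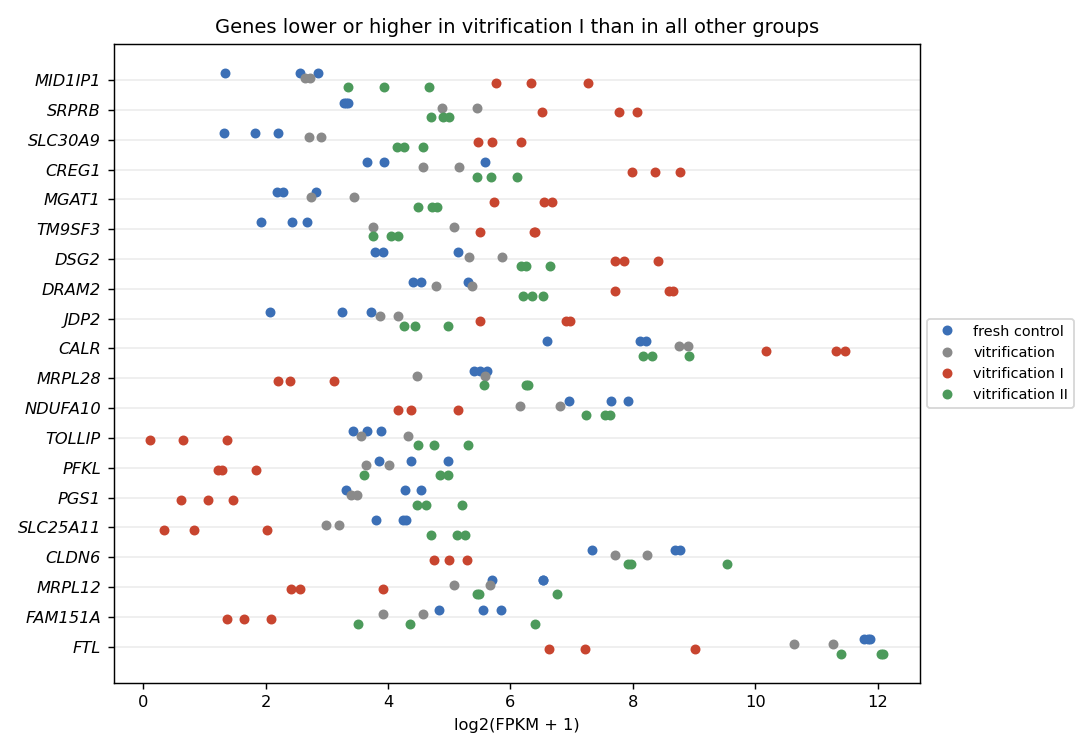
log2(FPKM + 1) in each of the 11 libraries for 10 genes called higher and 10 called lower in vitrification I than in fresh control, vitrification and vitrification II, the largest changes of that set. For all of these genes the call against vitrification was lost without vitrification replicate 1. TM9SF3 and FAM151A were the least steady, with this call lost in 15 and 9 alternatives. For FTL the 3 vitrification I libraries lie at 97.98 to 515 FPKM before the log, left of every other library, and for CREG1 they lie at 252 to 436 FPKM, right of every other library.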

How the data were processed

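RNA was measured by Smart-Seq2 in 12 samples of pig blastocysts in 4 groups, and the deposited table held 11 of them, all but 1 of the vitrification group. The third vitrification library was not analysed here. The values are FPKM as deposited by the authors, 1 per Ensembl gene identifier and library. Cufflinks 2.2.1, TopHat2 2.0.13, DESeq2 and FastQC are listed, with no role, in the submitters' processing notes. The genome build is not given in the sources used here. Sequencing depth is unknown, as the values used are FPKM without read counts, which leaves no basis for counting intervals.

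Of 31781 genes, the 9411 reaching 1 FPKM in 3 or more libraries were tested on the scale log2(FPKM + 1). Limma 3.58.1 in R 4.3.3 fitted 1 mean per group to all 11 libraries, with a trended prior and two-sided moderated tests, adjusted over all genes by the Benjamini-Hochberg method and called under 0.05. On simulated data of this design, 71 of 100 genes changed by 2 on the log2 scale and 99 of 100 changed by 4 were recovered among 8961 genes, and 12 unchanged genes were called. Changes were planted only in more highly expressed genes, and noise was drawn independently for each gene. The simulation therefore does not cover low genes or shifts of a whole library such as those seen here. The log scale with its pseudocount understates the change of low genes. Measures of single libraries were compared by exact permutation. Alternatives were a pseudocount of 0.1, no filter, quantile normalization, scaling to the non-mitochondrial total, array weights, a replicate block, a fit of 2 groups only, leaving out each library, and vitrification I replicate 2 alone. Median centring and the libraries of the other groups were added after seeing the data. Genes are named if they were stable calls with a symbol, no overlap of libraries and a mean of at least 5 FPKM in the higher group, by size of change, up to 4 of a list, and a set of known lineage and stress genes regardless. Some genes that this rule names are not reported here. The comparison, the 73 gene lists and the tests were chosen with earlier results of these data known.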

Additional observations from a re-analysis of the deposited data

How the results depend on the processing

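Against fresh control the 1752 calls became 906 without the low-level filter and 3337 with array weights, and ranged from 832 to 2029 when 1 library was left out. Without vitrification I replicate 2 the split was 725 higher and 1304 lower. A fit with replicate 2 as the only vitrification I library called 242. The 530 calls against vitrification became 921 without the filter and ranged from 5 to 822 when 1 library was left out, with 0 for vitrification I replicate 2 alone. The 3614 calls against vitrification II became 2257 on the non-mitochondrial scale and 785 with vitrification I replicate 2 alone, and ranged from 2673 to 3865 when 1 library was left out. Of the named genes' values under alternatives, 3131 kept direction and side of the threshold, 107 no longer passed it and 13 newly passed it. Another 23 values, all of genes not called, changed sign, and 0 called genes did. For the 139 named genes with a stable call, the rule of choice fixed direction and call in the 13 alternatives that define it. These counts are therefore no further support for those genes. With the replicate number as a block the calls were 1603, 296 and 3485 in the 3 comparisons. The numbers were not taken as pairs, since the correlation of deviations between same-numbered fresh control and vitrification I libraries was 0.143, 0.002 and 0.077. The set of stable calls that also differed from both vitrified groups was 33 higher and 84 lower under the block. Sequencing depth is unknown, and the absence of counts limits what can be said of genes near 0.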

Other observations

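Solute carriers, the largest named family of membrane transporters, were counted by the start of their symbols after the results had been seen, so these counts are a description. Of 129 tested genes named SLC outside the mitochondrial carriers, 23 were called higher and 10 lower in vitrification I than in fresh control, beside 8.85% and 9.77% of all genes, with 6 and 2 stable calls, and the median log2 difference was 0.13. Of 32 mitochondrial carriers named SLC25A, 2 were called higher and 9 lower, with a median of -0.32. Genes named ZNF, mostly zinc-finger transcription factors, gave 6 higher and 3 lower calls in 129, and genes named TMEM, membrane proteins of varied function, gave 15 and 11 in 108. Genes named KIF, the kinesin motors, gave 0 calls in 22.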
